A study of Homo sapiens with 132 samples.

Results

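The E2F and retinoblastoma family was followed by RNA-seq through all libraries from 4 human gastric cancer cell lines. The family comprised 10 genes, chosen by name and located in each count file by Ensembl gene identifier, out of 65217 identifiers in all. These were the E2F transcription factor genes E2F1, E2F2, E2F3, E2F4, E2F7 and E2F8, the dimerization partner gene TFDP1, and the pocket protein genes RB1, RBL1 and RBL2. MKN1, MKN7 and NCI-N87 cells grew in RPMI medium and Hs746T cells in DMEM medium, both with serum. Cells were left untreated (unb) or received the HER2 antibody trastuzumab (Tra, 5 µg/ml), the pan-HER tyrosine kinase inhibitor afatinib (Afa, 0.5 µM) or both (Tra+Afa). MKN1 and Hs746T cells also received EGF (5 ng/ml), the EGFR antibody cetuximab (Cet, 1 µg/ml) or both (EGF+Cet). Each of the 44 combinations of line, treatment and time (4 h or 24 h) was sampled in biological triplicate. Single treatments and Tra+Afa were compared with untreated cells, Tra+Afa also with afatinib alone, and EGF+Cet with EGF alone. The study names DMSO as the solvent control of afatinib, but no DMSO library is among the samples. Afatinib and its solvent therefore cannot be told apart in the comparisons with untreated cells. Each line is 1 established culture, so the replicates of a group come from the same line.

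E2F proteins bind promoters of genes for DNA replication, mostly as dimers with a DP protein such as the TFDP1 product. E2F1, E2F2 and E2F3 are known as activators, E2F4 mainly acts with pocket proteins to keep genes off, and E2F7 and E2F8 are atypical repressors that bind DNA without a DP partner. The pocket proteins pRB (RB1), p107 (RBL1) and p130 (RBL2) hold E2F dimers inactive until cyclin D and cyclin E kinases phosphorylate them. Growth factor receptors such as EGFR and HER2 act on this switch largely through cyclin D, and p130 is the pocket protein typical of resting cells.

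Library totals ranged from 25832557 to 69434151 counts with a median of 50725775, and no library was left out. E2F8 (ENSG00000129173, chr11:19224063-19241620) was listed at 0 counts in every library. The same was true of 1970 of 19674 protein-coding genes, among them CDK2 and SRSF2, which dividing cells use, so the 0 is not read as a level and no value is given for E2F8. The other 9 members passed the filter on low counts in every line. Of the 6 epithelial markers, the keratin genes KRT8, KRT18 and KRT19 were found in all lines, KRT19 lowest in Hs746T (18.4 to 47.4 CPM, counts scaled to sequencing depth). CLDN4 was at 267 to 446 CPM in Hs746T, 133 CPM or more in MKN7 and NCI-N87 and at most 18.2 CPM in MKN1. EPCAM lay at 14.9 to 39.5 CPM in MKN1 and Hs746T and at 244 CPM or more in the other lines. CDH1 (E-cadherin) stayed at or below 6.04 CPM in all MKN1 and Hs746T libraries, against 184 CPM or more in MKN7 and NCI-N87. Of the 4 mesenchymal markers, VIM was at 158 to 1218 CPM in MKN1 and 1334 CPM or more in Hs746T, against at most 16.5 CPM in MKN7 and NCI-N87. ZEB1 was at 26.4 to 85.1 CPM in MKN1 and Hs746T and at most 15.6 CPM in the other lines, CDH2 at 56.9 CPM or more in Hs746T and at most 1.31 CPM elsewhere, and FN1 at 77.6 CPM or more in all lines. Hs746T cells also carried COL1A1 at 370 CPM or more and PECAM1 at 79.6 CPM or more. The immune marker PTPRC reached at most 0.664 CPM in any library and CD3E at most 0.104 CPM. In NCI-N87 cells 24 h after afatinib, when most members fell, 3 of 6 epithelial markers fell and 1 rose, with 31% of all genes lower and 31.5% higher. In MKN7 4 of 6 fell, with 25% of all genes lower. The part of these markers in the results was not tested. In these bulk samples fewer expressing cells and less RNA per cell cannot be told apart.

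The promoters of 4 members that held an exact match to a known E2F site are shown, since E2F genes are known targets of E2F proteins. These 4 fell in NCI-N87 and MKN7 cells 24 h after afatinib, as did every other measured member but RBL2. A link between the sites and the fall was not tested. The promoter of E2F7, which fell too and held no such match, is shown beside them. RefSeq promoters (GRCh38.p14, 250 bases before to 50 after the start) were at hand for 7 of the 10 members, and E2F3, E2F8 and RBL2 had no entry. The RB1 entry lies 172724 bases from the annotated start of the gene and was not considered. The bases before the start are printed 5′ to 3′ on the gene's strand, with every match to TTTGGCGC, TTTGCCGC, TTTCGCGC or TTTCCCGC on either strand in capitals. They cover chr20:33686386-33686635 (minus strand) for E2F1, chr1:23531234-23531483 (minus) for E2F2, chr20:37095998-37096247 (minus) for RBL1, chr13:113584503-113584752 (plus) for TFDP1 and chr12:77065570-77065819 (minus) for E2F7.
E2F1: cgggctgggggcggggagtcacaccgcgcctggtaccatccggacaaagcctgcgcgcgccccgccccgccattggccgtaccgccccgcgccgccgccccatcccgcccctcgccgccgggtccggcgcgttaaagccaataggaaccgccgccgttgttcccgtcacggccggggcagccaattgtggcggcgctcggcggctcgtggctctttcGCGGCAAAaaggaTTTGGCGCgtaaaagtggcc
E2F2: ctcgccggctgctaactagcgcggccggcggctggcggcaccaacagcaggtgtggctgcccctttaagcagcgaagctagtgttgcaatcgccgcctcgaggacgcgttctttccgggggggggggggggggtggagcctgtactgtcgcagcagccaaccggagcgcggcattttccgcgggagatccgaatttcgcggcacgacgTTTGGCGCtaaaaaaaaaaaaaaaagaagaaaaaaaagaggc
RBL1: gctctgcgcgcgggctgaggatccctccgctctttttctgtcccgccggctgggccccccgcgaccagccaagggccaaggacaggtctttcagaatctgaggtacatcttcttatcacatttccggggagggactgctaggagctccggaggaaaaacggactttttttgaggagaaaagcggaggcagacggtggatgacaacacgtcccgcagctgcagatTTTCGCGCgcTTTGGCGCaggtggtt
TFDP1: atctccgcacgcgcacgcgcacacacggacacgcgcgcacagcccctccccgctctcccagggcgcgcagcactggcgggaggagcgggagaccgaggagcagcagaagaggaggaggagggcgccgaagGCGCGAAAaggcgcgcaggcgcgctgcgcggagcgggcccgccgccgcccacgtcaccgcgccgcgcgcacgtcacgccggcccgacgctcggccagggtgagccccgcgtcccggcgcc
E2F7: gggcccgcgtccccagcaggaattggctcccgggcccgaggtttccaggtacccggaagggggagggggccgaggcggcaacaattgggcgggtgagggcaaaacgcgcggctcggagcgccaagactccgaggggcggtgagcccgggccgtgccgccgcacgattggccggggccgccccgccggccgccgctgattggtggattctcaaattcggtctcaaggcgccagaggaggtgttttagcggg
E2F1 and RBL1 each held 2 matches, E2F2 and TFDP1 held 1 each, and E2F4 held none of these letters in its window. The 6 matches overlapped no other motif searched. In E2F1 they began 33 and 20 bases before the start, in RBL1 26 and 16 bases, in E2F2 42 bases and in TFDP1 120 bases. Of all 35116 RefSeq promoters of 300 bases, 3.3% held a match. The cell cycle homology element (TTTGAA or TTCGAA, 16.4% of all promoters) was in none of the members' promoters. CCAAT (34.6% of all promoters) was found 3 times in E2F1 and 4 times in E2F7. GGGCGG (45.0% of all promoters) was found 6 times in E2F1, 3 times in E2F7, 2 times in TFDP1 and 1 time in E2F4. All were searched on both strands.

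In untreated cells at 24 h the members were expressed over a wide range, compared here as CPM per kilobase of exonic sequence. TFDP1 (ENSG00000198176, chr13:113584721-113641470) and E2F1 (ENSG00000101412, chr20:33675683-33686404) had the highest levels in every line. TFDP1 reached 95.02 ± 3.96 CPM per kb in MKN1 (mean ± SD, n = 3, as below) and 94.99 ± 7.94 in NCI-N87, and no difference between these lines passed the test, whereas MKN7 (56.7 ± 6.18) and Hs746T (59.7 ± 4.27) lay lower. E2F1 was highest in MKN7 (78.7 ± 1.31), at close levels in Hs746T (61.6 ± 4.90) and MKN1 (61.3 ± 4.65), and lowest in NCI-N87 (45.4 ± 1.92). E2F2 (ENSG00000007968, chr1:23506430-23531220) and E2F7 (ENSG00000165891, chr12:77021247-77065580) set the lines apart most.
E2F2 fell from 6.94 ± 1.34 CPM per kb in MKN1 over 4.38 ± 0.17 in NCI-N87 and 2.76 ± 0.24 in MKN7 to 1.84 ± 0.57 in Hs746T, and each step passed the test. The step from MKN7 to Hs746T was lost without replicate 1 or without replicate 3, and both steps next to NCI-N87 without replicate 3. E2F7 was highest in Hs746T (19.5 ± 1.76), followed by NCI-N87 (9.93 ± 1.01), while MKN1 (3.73 ± 0.53) and MKN7 (3.50 ± 0.25) were not told apart (log2FC -0.094, 95% confidence interval -0.40 to 0.22).
E2F3 (ENSG00000112242, chr6:20401906-20493715) was lowest in NCI-N87 (7.76 ± 0.49 CPM per kb), with 16.6 ± 0.48 in Hs746T, 15.8 ± 1.06 in MKN7 and 14.6 ± 1.36 in MKN1. MKN1 and Hs746T differed in E2F3 narrowly (log2FC -0.19, SE 0.086, FDR = 0.0491), and leaving out any 1 replicate ended that call. E2F4 (ENSG00000205250, chr16:67192169-67198918) was highest in Hs746T (37.1 ± 2.23), followed by MKN7 (29.8 ± 3.99), and NCI-N87 (25.5 ± 3.94) and MKN1 (23.5 ± 1.63) were not told apart (95% confidence interval of the log2FC -0.077 to 0.32).

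Among the pocket protein genes, the one with the highest level differed between lines. RB1 (ENSG00000139687, chr13:48303726-48599436) led in NCI-N87 with 17.3 ± 1.39 CPM per kb and in MKN1 with 15.1 ± 1.79, and was found at 11.6 ± 0.73 in Hs746T and 8.92 ± 0.39 in MKN7. RBL1 (ENSG00000080839, chr20:36996349-37095995) led in Hs746T with 14.5 ± 1.15, followed by MKN7 (8.85 ± 0.91), and MKN1 (5.32 ± 0.6) and NCI-N87 (4.88 ± 0.59) were not told apart (95% confidence interval of the log2FC -0.36 to 0.12). RBL2 (ENSG00000103479, chr16:53433977-53491649) led in MKN7 with 11.1 ± 0.66, above NCI-N87 (6.14 ± 0.94), MKN1 (5.45 ± 0.46) and Hs746T (5.20 ± 0.33). The lowest of all these levels was that of E2F2 in Hs746T.
Between pairs of untreated lines, 9 of 9 members differed for NCI-N87 against MKN7 and against Hs746T, 7 each for MKN7 against MKN1, MKN7 against Hs746T and MKN1 against Hs746T, and 5 for NCI-N87 against MKN1 (FDR < 0.05). Several smaller differences ended when 1 replicate was left out: RB1 between NCI-N87 and MKN1 (without replicate 2 or 3), E2F4 between NCI-N87 and MKN7 (without replicate 3) and between MKN7 and MKN1 (without replicate 1 or 3), E2F1 between MKN7 and MKN1 (without replicate 2) and RBL2 between NCI-N87 and Hs746T (without replicate 1 or 2). With the replicate block RBL2 passed between NCI-N87 and MKN1 (0.17, FDR = 0.0443), but there the block pairs numbers across lines, and that pairing was not checked. Differences between lines were the rule for all genes: 65.6%, 68.4%, 64.5%, 66.6%, 68.6% and 68% of the tested genes differed in these pairs, in the same order.

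**Figure D1:**
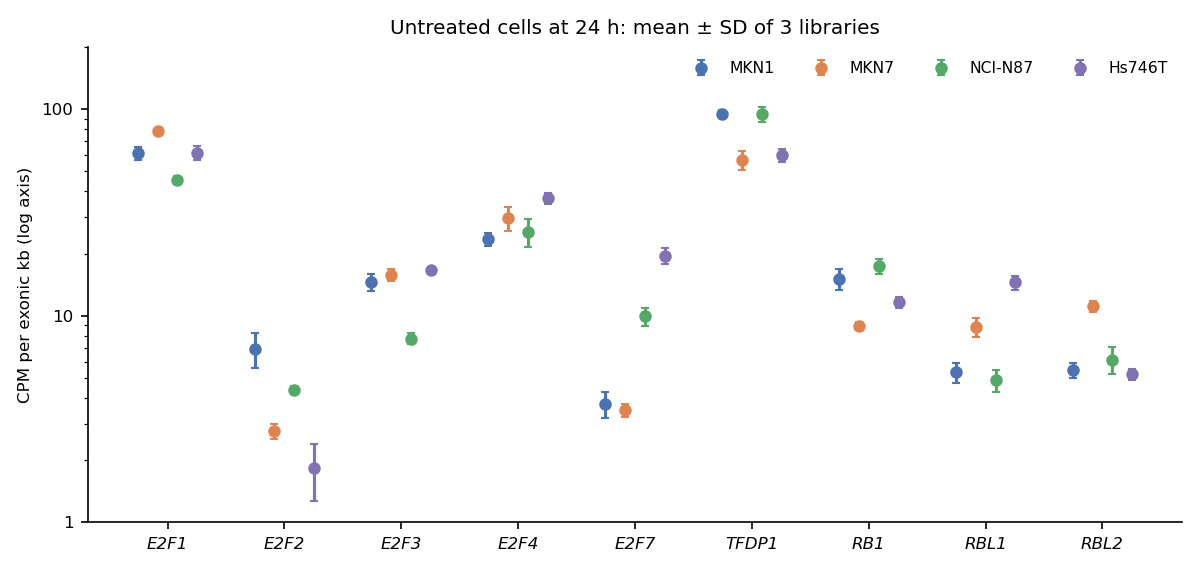
Levels of 9 members in untreated cells at 24 h in CPM per exonic kilobase on a log axis, as mean ± SD of 3 libraries for each of the 4 lines. TFDP1 and E2F1 were highest in every line, E2F7 and RBL1 were highest in Hs746T, and RBL2 was highest in MKN7.

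Afatinib lowered the activator E2F genes most in NCI-N87. At 24 h, E2F1, which drives entry into S phase, was at 109, 119 and 113 CPM in untreated cells (replicates 1 to 3, as below) and at 20.1, 20.8 and 24.8 CPM after afatinib (log2FC -2.41, SE 0.10, FDR = 4.82e-14). E2F2 was at 22.9, 24.7 and 24.1 CPM in untreated and 4.12, 3.78 and 4.97 CPM in afatinib-treated cells (log2FC -2.51, SE 0.12, FDR = 1.63e-13). E2F3 was at 37.7, 39.8 and 42.7 CPM and 11.1, 10.1 and 11.3 CPM (log2FC -1.92, SE 0.094, FDR = 3.35e-13). All treated libraries lay below all untreated ones for each of the 3 activators. The share of all genes with such a separation of libraries was not counted, here and below. The atypical repressor gene E2F7 fell too, from 55.3, 66.8 and 65.8 CPM to 10.9, 11.8 and 14.2 CPM (log2FC -2.38, SE 0.13, FDR = 1.4e-12). TFDP1, the shared dimer partner, fell from 334, 343 and 389 CPM to 129, 132.2 and 166 CPM (log2FC -1.35, SE 0.12, FDR = 2.37e-09). E2F4, from 106, 91.4 and 77.4 CPM to 49.1, 44.7 and 50.2 CPM, fell less (log2FC -0.96, SE 0.10, FDR = 6e-08).

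The pocket protein genes of NCI-N87 moved in opposite directions. RBL1 (p107) fell from 26.2, 27.9 and 33.0 CPM to 6.59, 7.85 and 7.58 CPM (log2FC -2.02, SE 0.11, FDR = 1.71e-12). RB1 fell from 104, 111 and 121 CPM to 58.1, 67.7 and 67.4 CPM (log2FC -0.83, SE 0.079, FDR = 7.89e-09). RBL2 (p130) rose from 51.2, 46.2 and 37.5 CPM to 94.4, 95.7 and 91.5 CPM (log2FC 1.03, SE 0.095, FDR = 4.9e-09). For none of the 3 did treated and untreated libraries overlap, and how many of all genes separated in this way was not counted. After afatinib RBL2 stood at 12.8 ± 0.3 CPM per kb, RB1 at 9.98 ± 0.84 and RBL1 at 1.23 ± 0.11, so that the highest mean level passed from RB1 to RBL2. RBL2 shares 610 exonic bases with AKTIP on the opposite strand, and how the counting treated strand is not given in the sources used here. AKTIP did not pass the test (log2FC 0.15, SE 0.13, FDR = 0.334).

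Of the 9 members measured in NCI-N87 at 24 h, 8 were lower and 1 was higher. Of all genes tested, 31% were lower and 31.5% higher, so a change as such was common in this comparison. With the criterion of the study (log2FC >1 or <-1 and FDR <0.05), 6 members were regulated downwards and RBL2 upwards, against 11.5% and 18.1% of all genes. The median log2FC of the 9 members was -1.92, and that of all genes 0.032.

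In MKN7 cells the same 9 members changed at 24 h, each by less. E2F1 was at 200.5, 194 and 197 CPM in untreated and 123, 107 and 146 CPM in afatinib-treated cells (log2FC -0.66, SE 0.12, FDR = 7.55e-05). E2F2 was at 14.1, 16.6 and 14.5 CPM and 7.26, 7.54 and 9.63 CPM (log2FC -0.89, SE 0.14, FDR = 3.07e-05). E2F7 was at 20.5, 22.1 and 23.6 CPM and 11.0, 9.73 and 14.0 CPM (log2FC -0.94, SE 0.13, FDR = 3.66e-06). The groups did not overlap for any of these. E2F3 (-0.69), TFDP1 (-0.77), RBL1 (-0.64), E2F4 (-0.47) and RB1 (-0.31) fell as well, with log2FC given in brackets. RBL2 rose from 84.0, 84.4 and 75.9 CPM to 122, 116 and 119 CPM (log2FC 0.54, SE 0.075, FDR = 4.61e-06). Thus 8 members were lower and 1 was higher, with 25% of all genes lower and 26.6% higher, and no member was regulated by the criterion of the study. The member median was -0.66, against 0.043 for all genes.

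In MKN1 cells 5 members were lower and RBL2 was higher at 24 h. TFDP1 fell furthest, from 348, 346 and 373 CPM to 243, 269 and 202 CPM (log2FC -0.59, SE 0.082, FDR = 2.67e-06). E2F4 (log2FC -0.42, SE 0.074, FDR = 6.53e-05), RBL1 (log2FC -0.36, SE 0.12, FDR = 0.0193), E2F3 (log2FC -0.34, SE 0.086, FDR = 0.00325) and E2F1 (log2FC -0.33, SE 0.076, FDR = 0.00156) fell too. RBL2 rose from 43.4, 39.6 and 36.8 CPM to 51.5, 44.3 and 54.4 CPM (log2FC 0.31, SE 0.082, FDR = 0.00532). RB1 had a log2FC of 0.004 (95% confidence interval -0.16 to 0.17). Of all genes, 13.3% were lower and 12.2% higher. These calls were less firm than in the other lines: without replicate 3 only TFDP1 still passed, and RBL1 did not pass without replicate 1 either. With the replicate number as a block, E2F2 (-0.18) and E2F7 (-0.28) also passed (FDR = 0.0487 and 0.0332).

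In Hs746T cells no member changed at 4 h or 24 h after any of the 5 treatments compared with untreated cells (0 of 90 tests, none with p below 0.05 before adjustment in edgeR and none in DESeq2). The background was the same: 0% of all genes passed in any of these 10 comparisons. After 24 h of afatinib the log2FC of the members lay between -0.10 for E2F2 and 0.014 for E2F1. E2F1 was at 141, 156 and 165 CPM in untreated and 138, 157 and 175 CPM in treated cells, so the groups overlapped. For E2F1 the 95% confidence interval of the log2FC reached from -0.26 to 0.29. In the direct tests against Hs746T the E2F1 effect differed in NCI-N87 and MKN7. In MKN1 it did not pass without the block (-0.33, FDR = 0.225). At 4 h all afatinib libraries lay above all untreated ones for E2F4 and below them for E2F7, RB1 and RBL1, though none of these passed without the block. With the replicate number as a block, 3 members passed at 4 h of afatinib: E2F7 (-0.28, FDR = 0.00297), E2F4 (0.18, FDR = 0.0198) and RBL1 (-0.13, FDR = 0.0447). The 0% of all genes above is without the block, and the share with the block is not given here.

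**Figure D2:**
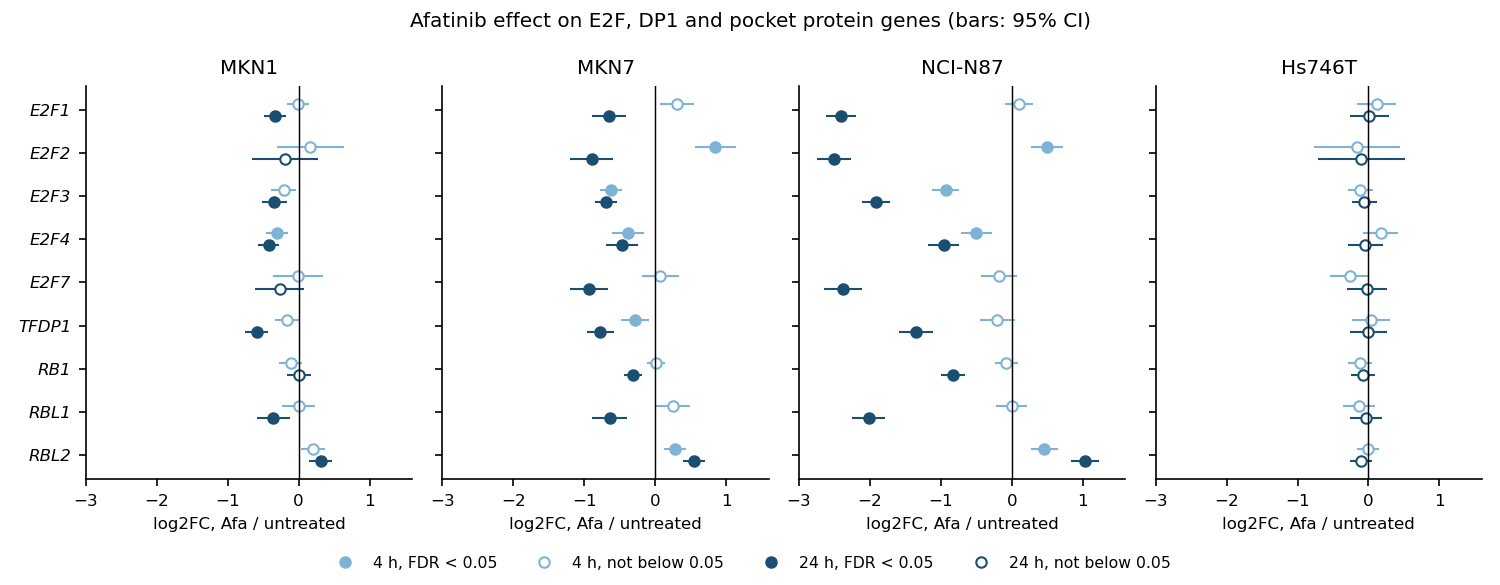
Log2FC of afatinib-treated against untreated cells for 9 members (rows) in the 4 lines (panels) at 4 h (light) and 24 h (dark), with bars for the 95% confidence interval and filled points for FDR < 0.05. In NCI-N87 and MKN7 8 members lay below 0 and RBL2 above 0 at 24 h, while in Hs746T no point was filled.

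**Figure D3:**
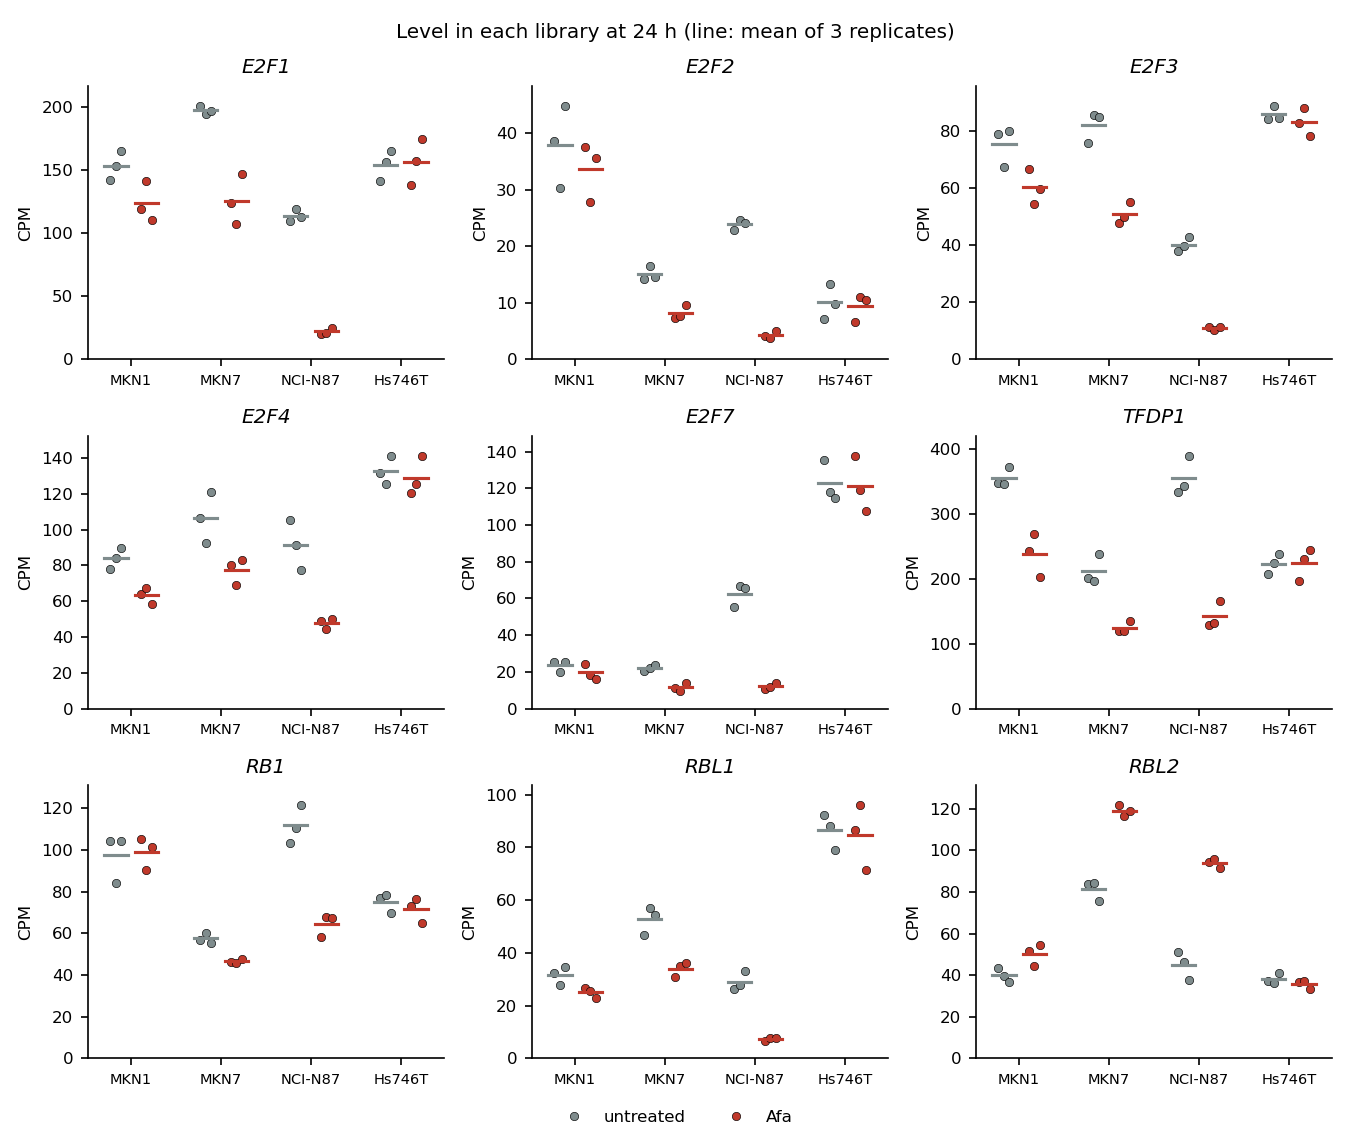
CPM of 9 members in each library at 24 h for untreated (grey) and afatinib-treated (red) cells of the 4 lines, with a line at the mean of 3 replicates and axes starting at 0. E2F1 dropped to between 20.1 and 24.8 CPM in NCI-N87, and untreated and treated libraries of Hs746T overlapped.

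Some members had already changed at 4 h, and 1 of them in the opposite direction. E2F2 rose at 4 h and fell at 24 h. In MKN7 it was at 14.1, 17.8 and 18.0 CPM in untreated and 28.5, 35.3 and 28.6 CPM in treated cells at 4 h (log2FC 0.85, SE 0.14, FDR = 0.000145). In NCI-N87 it was at 23.9, 19.1 and 23.3 CPM and 33.9, 29.2 and 29.8 CPM (log2FC 0.49, SE 0.11, FDR = 0.00219). All treated libraries exceeded all untreated ones in both lines, whereas at 24 h all were below them. The difference of the afatinib effect between 24 h and 4 h was -1.74 in MKN7 (FDR = 4.93e-06) and -3.002 in NCI-N87 (FDR = 1.36e-11) on the log2 scale.

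E2F3 and E2F4 fell early. In NCI-N87 E2F3 went from 40.1, 36.7 and 35.8 CPM to 21.3, 18.9 and 18.8 CPM (log2FC -0.93, SE 0.091, FDR = 2.16e-07) and E2F4 from 98.8, 96.0 and 101 CPM to 71.96, 67.2 and 69.3 CPM (log2FC -0.50, SE 0.10, FDR = 0.00143). In MKN7 the values were 94.7, 102 and 102 CPM and 64.6, 70.1 and 64.1 CPM for E2F3 (log2FC -0.63, SE 0.076, FDR = 3.43e-06). For E2F3 in MKN7 the difference between the effects at 24 h and 4 h was -0.066 (95% confidence interval -0.29 to 0.16) and did not pass. E2F4 (log2FC -0.39, SE 0.11, FDR = 0.0146) and TFDP1 (log2FC -0.28, SE 0.093, FDR = 0.0327) fell in MKN7 as well. Without replicate 1 the calls for E2F4 and TFDP1 in MKN7 ended, without replicate 2 that for TFDP1. With library size alone as scaling TFDP1 did not pass either (FDR = 0.102). In MKN1 E2F4 was the only member to pass at 4 h (log2FC -0.30, SE 0.074, FDR = 0.0127), and with the replicate block E2F3 (-0.21, FDR = 0.014) and RBL2 (0.20, FDR = 0.0482) joined it. The E2F4 call in MKN1 ended without replicate 1 (FDR = 0.0985) and without replicate 3 (FDR = 0.325).

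RBL2 rose early too, from 39.8, 34.6 and 35.6 CPM to 52.1, 49.1 and 49.5 CPM in NCI-N87 (log2FC 0.46, SE 0.094, FDR = 0.00131) and from 60.5, 68.0 and 59.3 CPM to 70.3, 82.4 and 80.7 CPM in MKN7 (log2FC 0.27, SE 0.075, FDR = 0.011). In MKN7 the overlapping gene AKTIP rose at the same time (log2FC 0.31, SE 0.072, FDR = 0.00326), and its part in the RBL2 value was not tested. The RBL2 call ended without replicate 3 in MKN7 (FDR = 0.162) and without replicate 2 in NCI-N87 (FDR = 0.0814). E2F1, E2F7, RB1 and RBL1 did not pass at 4 h in any line. E2F1 in MKN7 was at 206, 186 and 169 CPM untreated and 266, 222 and 226 CPM treated, all treated libraries above all untreated ones, but did not pass (log2FC 0.31, SE 0.12, FDR = 0.0592), whereas it did in DESeq2 (FDR = 0.0457). With the replicate block E2F1 (FDR = 0.000841) and RBL1 (0.24, FDR = 0.000339) of MKN7 and TFDP1 (-0.20, FDR = 0.00657) of NCI-N87 passed. In all, 2 members were higher and 3 lower in MKN7 (10.1% and 12.1% of all genes), 2 higher and 2 lower in NCI-N87 (9.06% and 9.1%), and 1 lower in MKN1 (2.41%).

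**Figure D4:**
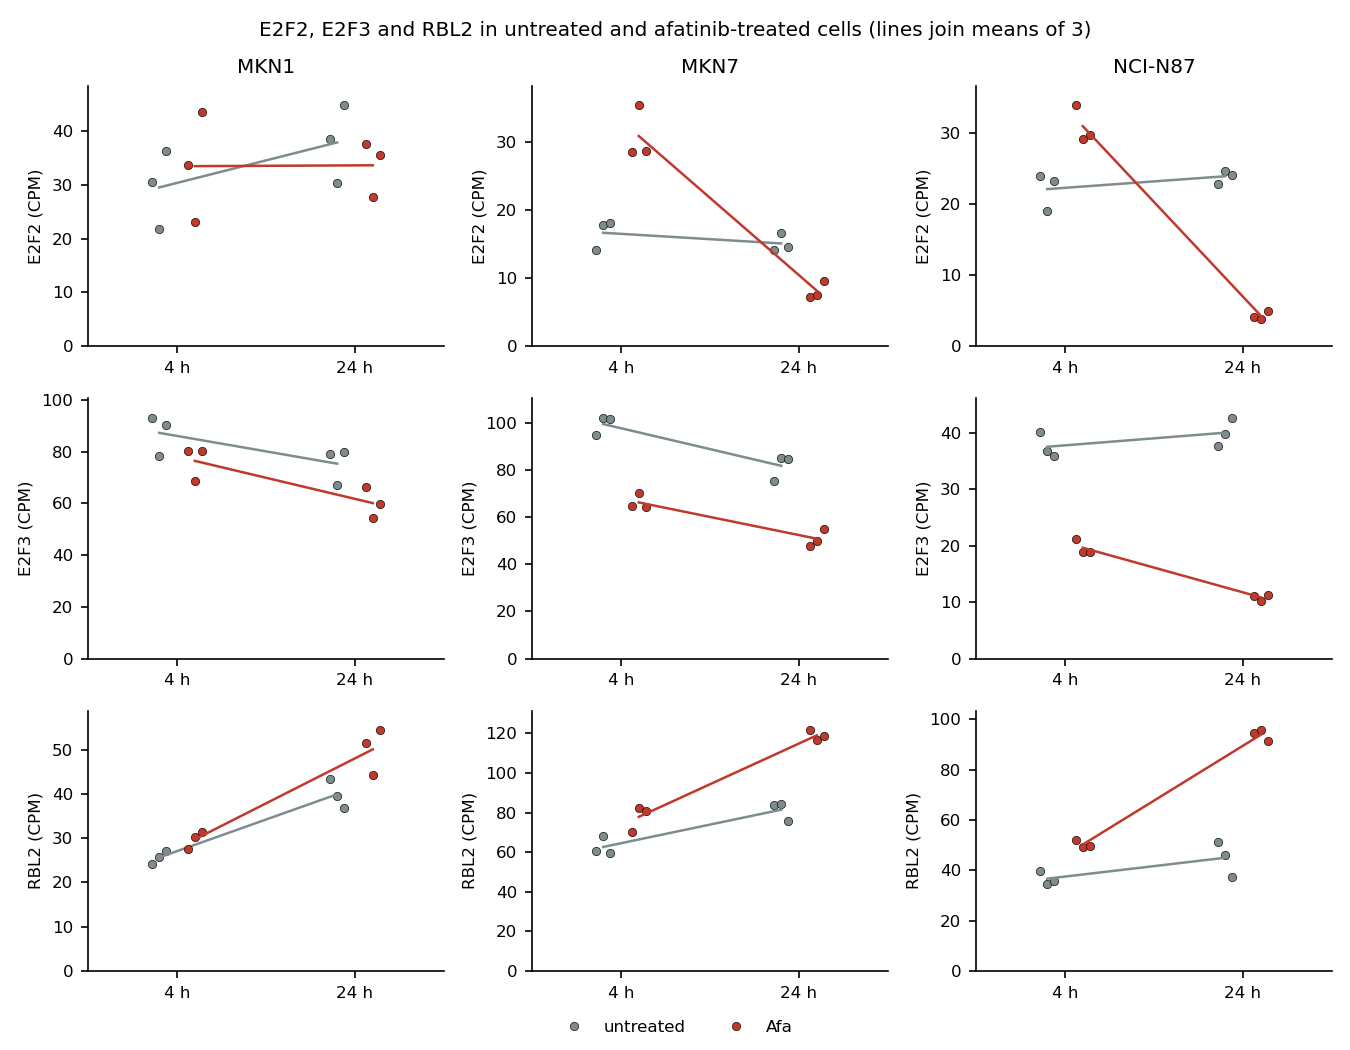
CPM of E2F2, E2F3 and RBL2 (rows) in each untreated (grey) and afatinib-treated (red) library of MKN1, MKN7 and NCI-N87 (columns) at 4 h and 24 h, with lines joining the means of 3. Treated E2F2 lay above untreated at 4 h and below it at 24 h in MKN7 and NCI-N87, while E2F3 was lower and RBL2 higher at both times.

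The afatinib effect was then compared between 24 h and 4 h. In NCI-N87 the difference passed the test for 9 of 9, 8 towards lower values (20.5% of all genes) and RBL2 towards higher (15.3%). In MKN7 it passed for 6, all towards lower values (9.28% of all genes): E2F1, E2F2, E2F7, RB1, RBL1 and TFDP1. Leaving out any 1 replicate ended the call for RB1 in MKN7, leaving out replicate 1 that for TFDP1 in MKN7, and leaving out replicate 1 or 2 that for E2F4 in NCI-N87. With the replicate block RBL2 passed in MKN7 as well (0.27, FDR = 0.00603). In MKN1 it passed for TFDP1 (log2FC -0.43, SE 0.12, FDR = 0.035; 1.43% of all genes), and with the replicate block also for E2F1, E2F2 and RBL1. The TFDP1 call ended without replicate 1 (FDR = 0.314) or 3 (FDR = 0.399). In Hs746T it passed for 0 of 9, with none at p below 0.05 before adjustment and none in DESeq2 (0% of all genes).

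The lines themselves differed in the afatinib effect at 24 h. All 9 members differed between NCI-N87 and MKN7 (21.4% of all genes), NCI-N87 and MKN1 (28%) and NCI-N87 and Hs746T (35.1%). For E2F1 the effect in NCI-N87 minus that in MKN7 was -1.72 on the log2 scale, and for RBL2 it was 0.51. Between MKN7 and Hs746T 7 members differed (18.8%), and with the replicate block the other two, E2F2 (-0.82, FDR = 4.66e-07) and RB1 (-0.24, FDR = 0.0132), passed as well. Between MKN1 and Hs746T RBL2 and TFDP1 differed (4.41%), and between MKN7 and MKN1 E2F7 did (log2FC -0.68, SE 0.22, FDR = 0.0419; 7.61% of all genes). The replicate block raised these last counts to 6 and 8 members. Leaving out any 1 replicate ended the call for E2F7. Between MKN1 and Hs746T the RBL2 call ended without replicate 3 and the TFDP1 call without replicate 2 or 3. Between MKN7 and Hs746T those for E2F1 and RBL1 ended without replicate 2 and that for E2F4 without replicate 2 or 3. Between NCI-N87 and MKN7 the E2F4 call ended when any 1 replicate was left out, the RB1 call without replicate 3 and the TFDP1 call without replicate 2. Between NCI-N87 and MKN1 the E2F4 call ended without replicate 1.

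Genes that E2F proteins are known to control also fell at 24 h. Of 25 such genes for replication and S phase entry, 25 were lower in NCI-N87, 25 in MKN7, 20 in MKN1 and 0 in Hs746T, where 31%, 25%, 13.3% and 0% of all genes were lower, with medians of -2.09, -0.70, -0.35 and -0.008 on the log2 scale. With library size alone as scaling 25, 23, 16 and 0 were lower, and 1 was higher in MKN1. Of all genes, 4169 of 19078, 3395 of 18483, 1756 of 19815 and 0 of 18667 were then lower, and 3226 were higher in MKN1. At 4 h, 3 were lower and 1 was higher in NCI-N87 (9.1% and 9.06% of all genes), 1 was higher in MKN7 (10.1%), and 0 passed in MKN1 (2.41% of all genes lower). RRM2, a subunit of ribonucleotide reductase (-3.49), and the replication factor GINS2 (-3.37) fell most in NCI-N87. In MKN7 and MKN1 CDC25A, a phosphatase that activates cyclin-dependent kinases, fell most (-1.36 and -0.80).
Of 9 measured genes for other family members and their DREAM and MuvB partners, 8 were lower and 1 higher in NCI-N87, 7 lower and 0 higher in MKN7, and 5 lower and 1 higher in MKN1. Of all genes 31% were lower and 31.5% higher in NCI-N87, 25% and 26.6% in MKN7, and 13.3% and 12.2% in MKN1. MYBL2, which replaces the pocket protein on MuvB in S phase, fell in NCI-N87 (-2.67), MKN7 (-1.08) and MKN1 (-0.57). E2F5, the closest relative of E2F4, fell at 4 h already in NCI-N87 (-0.91) and MKN7 (-1.24). The second DP gene, TFDP2, rose in NCI-N87 (0.80) and MKN1 (0.32), whereas TFDP1 fell.

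Upstream of the pocket proteins, CCND1 (cyclin D1) fell at 24 h in MKN7 (-2.09), NCI-N87 (-2.01) and MKN1 (-1.93). It was already lower at 4 h in MKN7 (-1.67), NCI-N87 (-1.52) and MKN1 (-0.86). In NCI-N87 the cyclin E genes CCNE1 (-2.50) and CCNE2 (-2.10) fell most at 24 h. The kinase inhibitor genes CDKN1C (2.79 and 2.44) and CDKN1B (0.69 and 0.47) rose in NCI-N87 and MKN7. Other inhibitor genes of the list went the other way or did not pass: CDKN1A fell in NCI-N87 (-0.86) and MKN7 (-1.09), CDKN2D fell in NCI-N87 (-0.54), MKN7 (-1.24) and MKN1 (-0.54), and CDKN2C did not pass at 24 h. Of 11 measured cyclin, kinase and inhibitor genes, 8 were lower and 2 higher in NCI-N87 and 7 lower and 2 higher in MKN7, and of 12 in MKN1, 5 were lower and 1 was higher, beside the same shares of all genes. CDK2, CDKN2A and CDKN2B belong to this list but were listed at 0 throughout.

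EGF and cetuximab moved 3 members of MKN1 in opposite directions at 24 h. RBL2 was at 43.4, 39.6 and 36.8 CPM in untreated cells, at 26.1, 19.9 and 28.2 CPM after EGF (log2FC -0.67, SE 0.083, FDR = 1.45e-07) and at 49.9, 47.2 and 52.1 CPM after cetuximab (log2FC 0.30, SE 0.082, FDR = 0.0168). E2F4 was at 78.0, 84.4 and 89.7 CPM, rose to 120.4, 118 and 114 CPM after EGF (log2FC 0.50, SE 0.074, FDR = 2.69e-06) and fell to 69.3, 65.9 and 66.0 CPM after cetuximab (log2FC -0.35, SE 0.074, FDR = 0.00255). TFDP1 was at 348, 346 and 373 CPM, at 451, 431 and 423 CPM after EGF (log2FC 0.31, SE 0.082, FDR = 0.00332) and at 291, 279.6 and 253 CPM after cetuximab (log2FC -0.39, SE 0.082, FDR = 0.00212). The 3 groups did not overlap for any of these genes. Both comparisons share the untreated libraries. After EGF 2 members were higher and 1 lower (17.3% and 18.5% of all genes), and after cetuximab 1 was higher and 2 were lower (4.92% and 5.91%). With library size alone as scaling the rise of TFDP1 after EGF no longer passed (0.11, FDR = 0.192), nor did it without replicate 1 (0.27, FDR = 0.142). The 3 cetuximab calls all ended without replicate 3, and that for RBL2 also without replicate 1.

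The replicate block raised the EGF count at 24 h from 3 to 6, adding E2F3 (0.17, FDR = 0.0132), RBL1 (0.23, FDR = 0.0237) and RB1 (-0.19, FDR = 0.00539). It raised the cetuximab count from 3 to 5, adding E2F1 (-0.17, FDR = 0.027) and RBL1 (-0.26, FDR = 0.0235). At 4 h RBL2 was lower after EGF (log2FC -0.28, SE 0.084, FDR = 0.0386), with 2.45% of all genes lower. That call ended when any 1 replicate was left out. AKTIP was lower there too (log2FC -0.36, SE 0.11, FDR = 0.031), and its part was not tested. E2F2 was at 30.5, 21.7 and 36.3 CPM in untreated and 19.1, 16.5 and 21.8 CPM in EGF-treated cells at 4 h. It was lower in 3 of 3 same-numbered pairs while the groups overlapped, and did not pass without the block (log2FC -0.62, SE 0.23, FDR = 0.126) but did with it (-0.59, FDR = 6.4e-07), as did E2F4 (0.16, FDR = 0.0475). After 4 h of cetuximab no member passed in edgeR (1 of 9 at p below 0.05 before adjustment) or DESeq2, with 1.43% of all genes changed, and E2F4 passed with the block (-0.23, FDR = 0.0079).

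**Figure D5:**
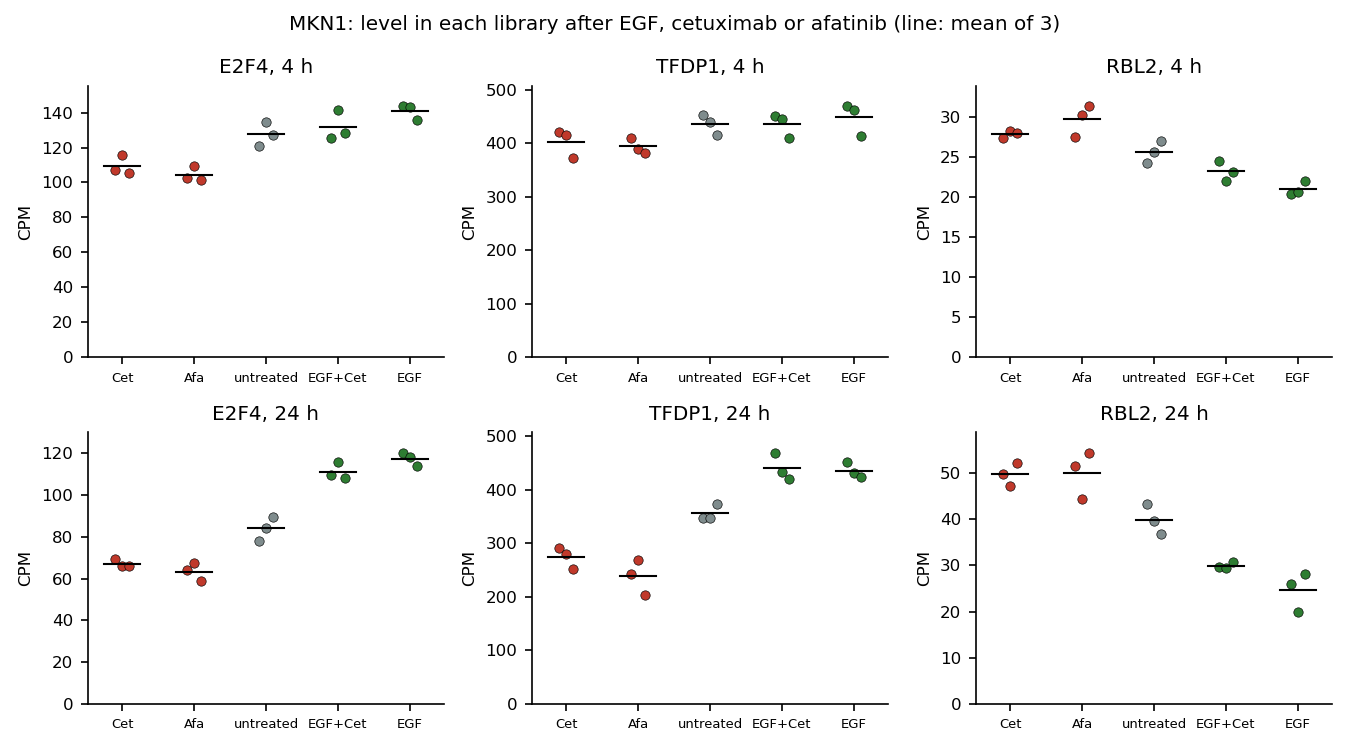
CPM of E2F4, TFDP1 and RBL2 in each MKN1 library at 4 h (top) and 24 h (bottom), red for cetuximab or afatinib, grey for untreated and green for EGF with or without cetuximab, with a line at the mean of 3 replicates and axes starting at 0. At 24 h E2F4 and TFDP1 were lower after cetuximab or afatinib and higher after EGF than in untreated cells, and RBL2 the reverse.

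Adding cetuximab to EGF changed no member against EGF alone in MKN1 or Hs746T (0 of 36 tests; 1 at p below 0.05 before adjustment in edgeR, 0 in DESeq2). Of all genes, 0.701% changed in MKN1 at 4 h, 0.646% at 24 h, and 0% in Hs746T. With the replicate block E2F2 passed at 4 h (0.38, FDR = 0.00198) and RBL2 at 24 h (0.27, FDR = 0.0114), both in MKN1 and both opposite to the change after EGF.
Trastuzumab alone changed no member in any line at either time (0 of 72 tests; 3 at p below 0.05 before adjustment in edgeR, 0 in DESeq2), and 0% of all genes changed. The log2FC of the members lay between -0.26 and 0.14. Trastuzumab added to afatinib changed no member against afatinib alone (0 of 72 tests; 0 at p below 0.05 before adjustment, 0 in DESeq2), with 0% of all genes, and these values lay between -0.16 and 0.12. Against untreated cells, the combination changed at 24 h 9 members in NCI-N87 (64.7% of all genes), 9 in MKN7 (51.9%) and 5 in MKN1 (26.8%), where RBL1 passed as well with the replicate block (FDR = 0.0135). In MKN1 the calls for E2F1 and RBL2 after the combination ended without replicate 3, and that for E2F3 without replicate 1 or 3.

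Members also changed between 4 h and 24 h in culture without any drug. In untreated MKN1 cells RBL2 rose from 24.2, 25.7 and 27.0 CPM to 43.4, 39.6 and 36.8 CPM (log2FC 0.62, SE 0.083, FDR = 6e-07), and RB1 rose as well (log2FC 0.25, SE 0.081, FDR = 0.0137). E2F4 fell from 121, 134 and 127 CPM to 78.0, 84.4 and 89.7 CPM (log2FC -0.62, SE 0.074, FDR = 6.95e-08), with TFDP1 (log2FC -0.32, SE 0.082, FDR = 0.00294) and E2F3 (log2FC -0.23, SE 0.086, FDR = 0.0339). In MKN7 RBL2 (log2FC 0.34, SE 0.075, FDR = 0.00377) and RB1 (log2FC 0.21, SE 0.063, FDR = 0.0238) rose, and E2F4 (log2FC -0.44, SE 0.11, FDR = 0.00906) and E2F3 (log2FC -0.32, SE 0.075, FDR = 0.007) fell. These counts, 2 higher and 3 lower in MKN1 and 2 higher and 2 lower in MKN7, compare with 17.7% and 16.4% of all genes in MKN1 and 6.96% and 9.43% in MKN7. The 4 MKN7 calls all ended without replicate 1, that for E2F3 also without replicate 2 and that for RB1 also without replicate 2 or 3, and in MKN1 those for E2F3 and RB1 ended without replicate 1 or 3 and that for TFDP1 without replicate 1. No member changed in NCI-N87 (2 at p below 0.05 before adjustment; 0.267% of all genes) or Hs746T (1 at p below 0.05; 1.48%), nor in DESeq2. With the replicate block E2F2 passed in MKN1 (0.35, FDR = 0.00542), E2F7 (-0.27, FDR = 0.0345) and TFDP1 (-0.17, FDR = 0.0198) in MKN7, RBL2 in NCI-N87 (0.30, FDR = 0.0295) and E2F7 in Hs746T (-0.43, FDR = 0.00317). Here the block pairs numbers across times, and that pairing was not checked.

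Across all 44 conditions, centred on the mean of each line, the members were compared with each other and with all other genes, as a description, since the conditions share cell lines and treatments. E2F1, E2F7 and RBL1 varied together (Pearson r 0.93 to 0.97, Spearman rho 0.68 to 0.80), and over the 36 conditions without NCI-N87 their r was 0.76 to 0.89. E2F4 varied with TFDP1 (0.92) and opposite to RBL2 (-0.96), with 0.94 and -0.97 without NCI-N87. RB1 varied with E2F1 over all conditions (0.67) but not without NCI-N87 (-0.17), and its correlation with RBL2 was -0.14 with and 0.65 without that line. Among 12759 other protein-coding genes tested in all lines, those most like E2F1 by Pearson r were the replication genes MCM2 and CDC45 and the gene TCF19 (0.99 each). Those most like RBL1 were CLSPN, BLM and POLQ (0.98 to 0.99), those most like E2F7 were ATAD2, ORC6 and USP1 (0.97 to 0.98), and those most like E2F2 were ZNF367, MASTL and PIK3R4 (0.96 to 0.98). TFDP1 was most like CCT5, TOMM40 and VDAC1 (0.993 to 0.995), E2F4 most like DNTTIP2, TAF5L and TRMT1 (0.983 to 0.985), and E2F3 most like TWISTNB, KIRREL1 and LRCH1 (0.97 to 0.98). RBL2 was most like C11orf71, PCSK4 and PARP10 (0.98), and RB1 most like RSRC1, IMMP1L and SLC4A2 (0.90 to 0.93). By Spearman rho, no gene was shared with these lists for E2F1 (SAE1, H2AFZ and RPA2, 0.955 to 0.961) and E2F4 (NOL11, METTL1 and GPATCH4, 0.954 to 0.966), while 1 or 2 of the 3 genes were shared for each other member.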

How the data were processed

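RNA of the cultures was sequenced as polyA-selected, directional libraries. The authors trimmed reads with Trim Galore, aligned them with STAR to hg38 and deposited 1 file of raw gene counts per library; versions, the counting program and its strand setting are not given in the sources used here. Gene names and positions came from GENCODE 29 by Ensembl identifier, and 8404 of 65217 identifiers, holding 0.0422% of all counts, had no entry there. No pair of replicates was identical. The sample numbers form a first series of 65 and a second of 67 libraries, and what these stand for is not given here. Replicate 1 lay in the first and replicate 3 in the second. Replicate 2 lay in the first for MKN1 and for Hs746T at 4 h, and otherwise in the second. Untreated MKN1 against other lines and untreated Hs746T at 24 h against 4 h are thus partly mixed with the series. Library totals ranged from 25832557 to 69434151 counts.

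Counts were analysed with edgeR 4.0.16 (R 4.3.3): TMM scaling, a filter on low counts (minimum 10, total 15), the quasi-likelihood test with a mean per treatment and time in each cell line, and Benjamini-Hochberg adjustment over all genes tested (FDR). The filter left 18483 genes for MKN7, 18667 for Hs746T, 19078 for NCI-N87 and 19815 for MKN1. A gene was called changed at FDR < 0.05. Comparisons between lines used a joint fit of 22832 genes. Intervals are 95% intervals of that model. Levels are TMM-scaled counts relative to library size (CPM), between genes per kilobase of exonic sequence. The fit of a single line was checked on counts simulated from MKN7 without a replicate effect. The joint fit and the replicate block were not checked in this way.

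Same-numbered replicates deviated from their group means together (correlation above 0.1 for every number) in 47 of 48 comparisons. The main tests did not use this pairing. The replicate number, taken from the sample titles, entered the fit only as the replicate block, which is an alternative. The exception among the 48 comparisons was Tra+Afa against Afa in MKN1 at 24 h. All of them lay within a line and time. For levels of untreated lines and for untreated 24 h against 4 h, the block paired numbers across lines or times. That pairing was not checked. Alternatives were library size alone, DESeq2 size factors, DESeq2 1.42.0, no filter, the replicate block, the compared groups only, leaving out each replicate and, for likeness, Spearman in place of Pearson correlation.

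The members and the gene lists were chosen with earlier results of these data known. Genes outside the family were named as the extremes in each direction within their list among those that passed, and likeness as the 3 genes with the highest Pearson correlation. CCND1, CDKN1A, CDKN1B, CDKN1C, CDKN2C, CDKN2D, E2F5, TFDP2 and MYBL2 are also given in lines where they were not the extremes. These were chosen after their values were seen.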

Additional observations from a re-analysis of the deposited data

Results flagged for a closer look

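The afatinib effect of single members differed between times or cell lines in 53 tests of the difference itself (interaction terms in edgeR, FDR < 0.05). There were 36 member tests between times and 54 between lines. Of all genes, 4.41% to 35.1% differed between lines. Between times 1.43% moved lower in MKN1, 9.28% in MKN7 and 20.5% in NCI-N87, 15.3% moved higher in NCI-N87, and 0% changed in Hs746T. Several of the calls below ended when 1 replicate was left out, as given above. Values are differences of log2FC, negative where the later time or the first line named was lower.

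Between 24 h and 4 h in NCI-N87, the effect differed by -2.51 for E2F1, -3.002 for E2F2, -0.98 for E2F3, -0.46 for E2F4, -2.20 for E2F7, -0.75 for RB1, -2.01 for RBL1, 0.57 for RBL2 and -1.15 for TFDP1 (FDR = 1.36e-11 to 0.017). Between 24 h and 4 h in MKN7, the effect differed by -0.96 for E2F1, -1.74 for E2F2, -1.01 for E2F7, -0.32 for RB1, -0.88 for RBL1 and -0.49 for TFDP1 (FDR = 4.93e-06 to 0.0143). Between 24 h and 4 h in MKN1, the effect differed by -0.43 for TFDP1 (FDR = 0.035).

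At 24 h the effect in NCI-N87 minus that in MKN7 was -1.72 for E2F1, -1.59 for E2F2, -1.20 for E2F3, -0.47 for E2F4, -1.42 for E2F7, -0.49 for RB1, -1.35 for RBL1, 0.51 for RBL2 and -0.55 for TFDP1 (FDR = 6.67e-17 to 0.0102). At 24 h the effect in NCI-N87 minus that in MKN1 was -2.06 for E2F1, -2.31 for E2F2, -1.56 for E2F3, -0.52 for E2F4, -2.10 for E2F7, -0.82 for RB1, -1.64 for RBL1, 0.73 for RBL2 and -0.74 for TFDP1 (FDR = 3.45e-21 to 0.00257). At 24 h the effect in NCI-N87 minus that in Hs746T was -2.40 for E2F1, -2.39 for E2F2, -1.83 for E2F3, -0.89 for E2F4, -2.33 for E2F7, -0.73 for RB1, -1.95 for RBL1, 1.16 for RBL2 and -1.32 for TFDP1 (FDR = 1.68e-25 to 1.58e-07). At 24 h the effect in MKN7 minus that in Hs746T was -0.67 for E2F1, -0.64 for E2F3, -0.42 for E2F4, -0.92 for E2F7, -0.60 for RBL1, 0.64 for RBL2 and -0.77 for TFDP1 (FDR = 7.62e-06 to 0.0247). At 24 h the effect in MKN1 minus that in Hs746T was 0.42 for RBL2 and -0.58 for TFDP1 (FDR = 0.00884 to 0.0146). At 24 h the effect in MKN7 minus that in MKN1 was -0.68 for E2F7 (FDR = 0.0419). In each of these comparisons in which RBL2 passed, it had the opposite sign to every other member that passed.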

How the results depend on the processing

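No member value that passed the threshold, as reported or in an alternative, changed its direction, while some values close to 0 that passed in neither changed sign. Of 5076 recomputed values 4851 stayed on the same side of the threshold, 159 lost it and 66 gained it. All 9 member calls in NCI-N87 and in MKN7 24 h after afatinib, alone or with trastuzumab, were kept in all 9 alternatives. In MKN1 1 of 6 was kept. Counts of members changed that moved are grouped here by comparison, and the cause was not tested.

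The replicate block, which pairs same-numbered samples, ended no call. The shares of all genes given beside the member counts are those without the block, and shares with it are not given. It raised these counts by over 1.5 times: MKN1 Afa 4 h and Tra+Afa 4 h from 1 to 3 each, EGF 4 h from 1 to 3, Cet 4 h from 0 to 1, EGF+Cet against EGF from 0 to 1 at 4 h and at 24 h, EGF 24 h from 3 to 6, Cet 24 h from 3 to 5 and the afatinib effect at 24 h minus 4 h from 1 to 4. Elsewhere it moved Tra+Afa 4 h in NCI-N87 from 4 to 7, Afa 4 h in Hs746T from 0 to 3, Tra+Afa 4 h in Hs746T from 0 to 1, untreated 24 h against 4 h in NCI-N87 and Hs746T from 0 to 1 each, and the line difference MKN7 minus MKN1 from 1 to 8 and MKN1 minus Hs746T from 2 to 6. By less it raised Afa 24 h (6 to 8), Tra+Afa 24 h (5 to 6) and untreated 24 h against 4 h (5 to 6) in MKN1, Afa 4 h and Tra+Afa 4 h (5 to 7 each), untreated 24 h against 4 h (4 to 6) and 24 h minus 4 h (6 to 7) in MKN7, Afa 4 h in NCI-N87 (4 to 5), untreated NCI-N87 against MKN1 (5 to 6) and MKN7 minus Hs746T (7 to 9).

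With library size alone, without the filter or with the compared groups only, the MKN1 counts for Afa 4 h and Tra+Afa 4 h fell from 1 to 0. EGF 4 h fell to 0 without the filter and with the compared groups only. With the compared groups only, Afa 24 h in MKN1 fell to 2, Cet 24 h to 1, untreated 24 h against 4 h to 3 in MKN1 (3 with library size alone) and 0 in MKN7, and the line differences MKN7 minus MKN1 and MKN1 minus Hs746T to 0. The former was also 0 with library size alone and without the filter, the latter 1 without the filter. The MKN1 24 h minus 4 h count was 2 with library size alone and 0 without the filter or with the compared groups only.

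Leaving out 1 replicate gave 0 to 1 for Afa, Tra+Afa and EGF at 4 h, 1 to 6 for Afa 24 h, 2 to 6 for Tra+Afa 24 h, 0 to 4 for Cet 24 h, 2 to 5 for untreated 24 h against 4 h and 0 to 2 for 24 h minus 4 h, all in MKN1. It gave 2 to 5 for Tra+Afa 4 h and 0 to 3 for untreated 24 h against 4 h in MKN7, 1 to 4 for Tra+Afa 4 h in NCI-N87, 3 to 5 for untreated NCI-N87 against MKN1, and 0 to 0, 4 to 7 and 0 to 2 for the line differences MKN7 minus MKN1, MKN7 minus Hs746T and MKN1 minus Hs746T.

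Library size alone moved the median log2FC of all genes in NCI-N87 24 h after afatinib from 0.03 to 0.29. The split of higher and lower genes moved there from 6011 and 5919 to 8055 and 4169, in MKN7 from 4914 and 4614 to 6137 and 3395, and in MKN1 from 2427 and 2641 to 3226 and 1756. After EGF at 24 h in MKN1 it moved from 3432 and 3662 to 1623 and 6271. Genes listed at 0 throughout could not be measured at any depth.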
